A study of Caenorhabditis elegans with 6 samples.

Results

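Of the 437 mature microRNA (miRNA) names counted in whole *Caenorhabditis elegans*, 189 had fewer than 18 reads when the 6 libraries were added together, a mean of under 3 reads per library. These 189 silent or barely detected miRNAs were chosen by that summed count alone, so their low level is a description and not a result. They comprised 77 names with 0 reads in every library and 112 names with 1 to 17 reads. The worms were of the wild-type N2 strain and were taken as L4 larvae kept at 20 °C on nematode growth medium with OP50 bacteria. Cadmium chloride was given at 60 µmol/L to the worms of 3 libraries, and 3 libraries came from untreated controls, with no deletion or transgene in either group. The labels do not say how long the exposure lasted or whether libraries of a group came from separate cultures, so p-values measure only the spread between these libraries, which may be technical.

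A miRNA is cut from a hairpin precursor whose 5′ and 3′ sides can each give a mature arm, written 5p and 3p. As a rule an Argonaute protein keeps the guide arm, which pairs with target messenger RNAs through the seed near its 5′ end, and the passenger arm is degraded. A name can therefore be rare because it is the passenger of a busy hairpin, because the whole hairpin is little used in these animals, or because it is made in a few cells of a whole worm. Whole-worm RNA does not separate fewer expressing cells from less RNA per cell.

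The libraries held 1640693 to 3917414 miRNA counts. Together they gave 17701460 counts, of which the 189 names held 630, or 35.6 CPM (counts scaled to 1e6 per library). A name with 0 reads is limited to 0.169 CPM over all libraries, the level of 3 counts, so it was not detectable at this depth rather than shown to be absent. Intervals and floors of this kind cover counting error only, since the reads carry no molecular identifiers.

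Most of the barely detected names were seen in few libraries. Among the 112 with reads, 24 had a single read in all, 44 had 2 to 5 and 44 had 6 to 17. Reads fell in 1 library only for 29 names. They fell in all 6 libraries for 2 names, miR-5552-5p (2, 1 and 1 in control and 2, 1 and 2 in cadmium libraries) and miR-4814-5p (1, 2 and 3 against 5, 5 and 1). The highest count of any of the 189 in a library was 9. The names nearest the limit differed little from those just past it. miR-4814-5p and miR-8191-5p had 17 reads, and miR-1820-3p and miR-60-5p had 16, while miR-8198-3p had 18, miR-1823-3p 19 and miR-235-5p 20. The limit of 18 therefore falls within a continuous range of levels.

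**Figure D1:**
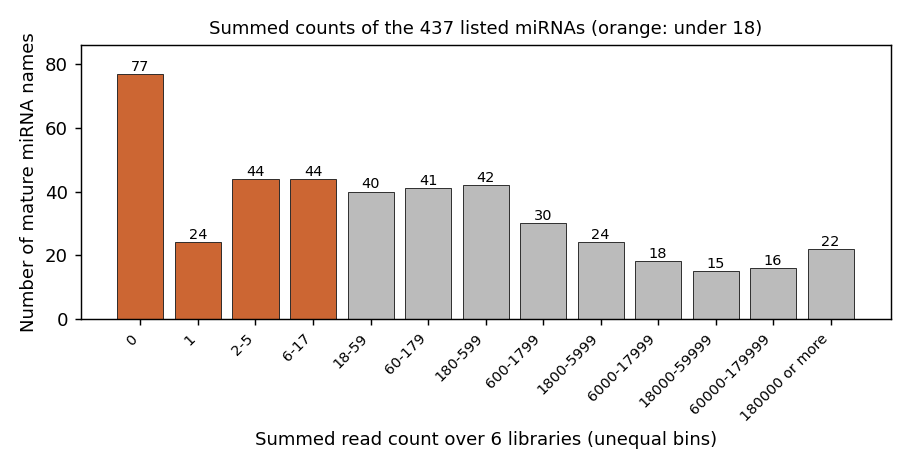
Number of mature miRNA names (vertical axis) by summed read count over the 6 libraries (horizontal axis, unequal bins), with names under 18 reads in orange. The bar at 0 holds 77 names and the bins of 1, 2 to 5 and 6 to 17 reads hold 24, 44 and 44, with 40 more at 18 to 59.

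The silent names were concentrated among hairpins with high numbers, which were in general named later. Of 112 names from hairpins numbered under 100, 9 were barely detected or silent (8.04%). The share was 32.2% for hairpins from 100 to under 1000 (38 of 118), 60.5% from 1000 to under 3000 (46 of 76) and 66.2% from 4000 to under 6000 (45 of 68). It reached 86.0% for hairpins numbered 8000 and above (49 of 57). With let-7, lin-4 and lsy-6 counted among the low numbers, the groups below and above 1000 held 49 of 236 and 140 of 201 names. Names with 0 reads followed the same order, from 2.68% for hairpins under 100 to 33.3% for those of 8000 and above.

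**Figure D2:**
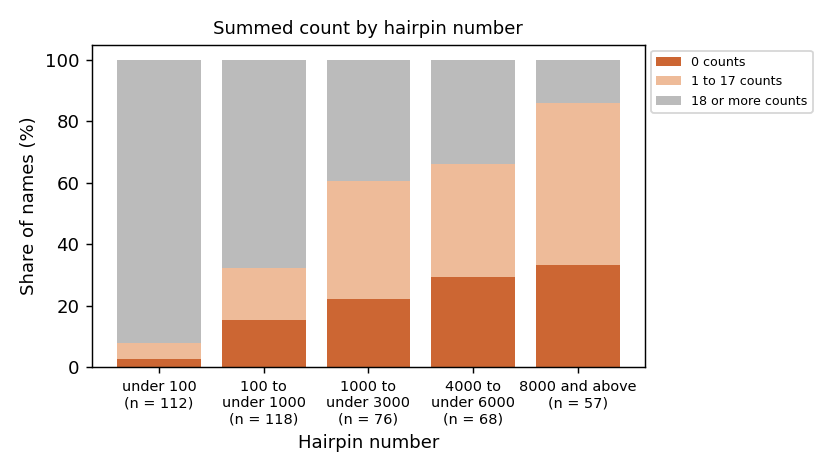
Share of mature miRNA names (%, vertical axis) with 0, 1 to 17, and 18 or more reads over the 6 libraries, by hairpin number (horizontal axis, n names per band). The share under 18 reads was 8.04% for hairpins under 100 and 86.0% for those numbered 8000 and above.

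Both arms and names without an arm were represented. The list held 192 names ending in 5p, 190 ending in 3p and 55 with no arm given, for which a single mature form was annotated in each of the 37 barely detected cases. Of the 5p names 87 (45.3%) were barely detected, of the 3p names 65 (34.2%), and of the names without an arm 37 (67.3%). Names with 0 reads numbered 32, 20 and 25 in these classes.

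The partner arm divided the barely detected names into passengers of working hairpins and hairpins that were quiet on both sides. A partner was listed for 151 of the 189. It was expressed, with a mean of at least 10 counts per library, for 47 names, and had 18 to 59 reads in all for 12. For the other 92 names, from 46 hairpins, the partner was itself barely detected. The proportions differed with hairpin number. Below 1000, 26 of the 49 names had an expressed partner and 8 a barely detected one. From 1000 upward, 21 of 140 had an expressed partner and 84 a barely detected one. Of the 47 names with an expressed partner, 33 were 5p arms and 14 were 3p arms.

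The most abundant hairpin with a silent arm was mir-59 (chromosome IV, 11309154 to 11309253, minus strand, between protein-coding genes; all positions are those of the WBcel235 annotation). Its 3p arm had 48734 reads and its 5p arm had 0 in every library. That limits the 5p arm to 0.00616% of the hairpin's reads, the share of 3 counts. The other silent arms with more than 1000 reads on the partner were miR-785-5p (6754 on the 3p arm), miR-787-5p (3908), miR-355-3p (3507 on the 5p arm), miR-247-5p (2123) and miR-249-5p (1757). Below 1000 reads the list went on with miR-5551-3p (706 on its partner), miR-8196a-5p (597) and miR-2212-3p (229), and also held miR-8188-3p. For miR-249-5p the limit is 0.171% of the hairpin's reads, so shares as low as those of the abundant hairpins could not have been seen there.

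The passenger arms with a few reads belonged to some of the best-studied worm miRNAs. lin-4, the first miRNA described and a timer of larval development, had 35663 reads on its 5p guide arm and 2 on its 3p arm, both in cadmium replicate 2 (chromosome II, 5902254 to 5902347, plus strand, in an intron of F59G1.4). The 3p arm was 0.00561% of the hairpin (exact Clopper-Pearson 95% interval 0.000679% to 0.0203%). The largest partner of all was miR-53-5p, of the mir-51 family, with 51343 reads against 5 for miR-53-3p (0.00974%, interval 0.00316% to 0.0227%). miR-85-5p had 10 reads against 44887, miR-246-5p 10 against 32880, and miR-60-5p, whose 3p partner is a miRNA of the gut, 16 against 31650. miR-234-5p had 2 against 19640, and miR-245-5p had 5 against 16274. miR-1820-3p had 16 against 9628, miR-76-5p 5 against 9374, and miR-1022-3p 4 against 9087. lsy-6, which sets the left-right difference of the ASE taste neurons, had 824 reads on its 3p guide arm and 2 on its 5p arm (chromosome V, 10647232 to 10647304, plus strand, between protein-coding genes).

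Low passenger levels were common in the whole data set. Of 131 hairpins with both arms listed and at least 60 reads on the major arm, 47 had a barely detected minor arm and 17 of these had 0 reads on it. Where the major arm had 10000 reads or more, 8 of 58 minor arms were barely detected and 1, miR-59-5p, had none. Where it had from 1000 to under 10000, 12 of 29 were barely detected and 5 had none. From 60 to under 1000 reads the numbers were 27 of 44 and 11. The limit on reads was the same for every hairpin, so these proportions depend on the size of the major arm. They do not show that smaller hairpins gave less of their reads to the minor arm. The median share of the minor arm ran the other way. In the same order of bands it was 0.115%, 0.853% and 2.28% of the hairpin's reads. Among the 87 hairpins with 1000 reads or more on the major arm, the minor arm took a median of 0.221% of the reads. For the 20 barely detected minor arms among them the share ran from 0 to 0.404%, the highest being miR-1821-5p. For the other minor arms the median was 0.430% and the lowest share, that of miR-52-3p, was 0.00313%, so the ranges overlapped. The limit on reads chose the barely detected arms, so their low shares are a description and not a result.

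**Figure D3:**
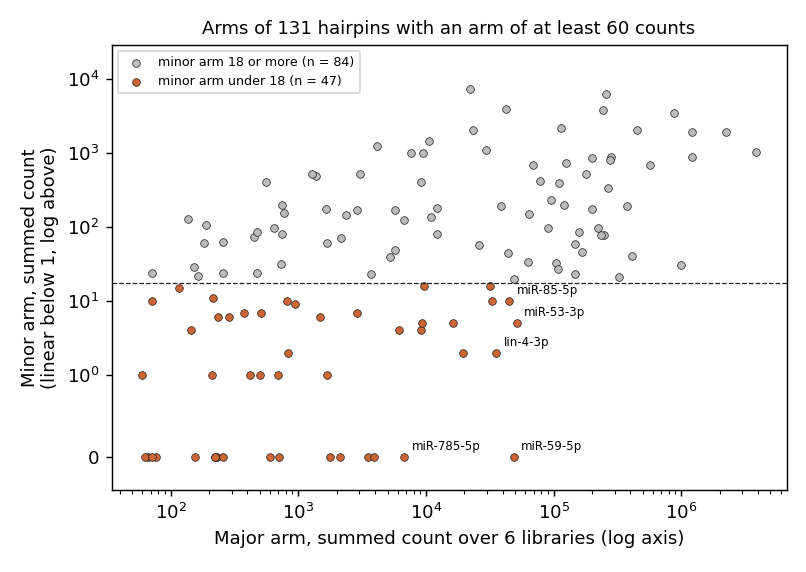
Summed reads of the minor arm (vertical axis, linear below 1 and log above) against those of the major arm (horizontal log axis) for 131 hairpins with both arms listed. The 47 orange points lie under the limit of 18 reads (dashed line), and miR-59-5p lies at 0 beside a major arm of 48734 reads.

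At the level of whole hairpins, 143 of the 247 listed had at least 1 barely detected name, and for 84 every listed name was barely detected. Hairpins were counted by name. By that count every listed name had 0 reads in 29 hairpins, and 26 of these had only 1 listed name. From hairpins below 1000 these were miR-55b, miR-256, miR-261, miR-264, miR-265, miR-267, miR-268, miR-270, miR-271, miR-272, miR-273, miR-356a and miR-798. Those above 1000 with a name of a single form were miR-1021, miR-1818, miR-4923a, miR-4924, miR-4925, miR-4930, miR-4931, miR-4932, miR-4933, miR-4934, miR-4935 and miR-4938. miR-5548, miR-8195 and miR-8203 were listed by both arms. The last of the 29 names, miR-2217b-1, was listed by its 5p arm and has the same position as a copy of miR-2217b. The 3p arm of miR-2217b had 22 reads, but that name has 4 annotated loci. Which of these loci gave the reads cannot be told, so it is not known whether the miR-2217b-1 locus was silent. The 29 lay on all 6 chromosomes.

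A numbered run of early hairpins was almost entirely silent. Of hairpins mir-256 to mir-273, 13 were listed with 14 names, and 12 of these names were barely detected. Of these, 10 had 0 reads, while miR-266 had 1 and miR-269 had 3. miR-273 (chromosome II, 14947039 to 14947132, plus strand, in an intron of pde-3), reported to act in the ASE taste neurons that also use lsy-6, had 0 reads in all 6 libraries.

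Established families contributed few names. No name of the miR-35 family (16 listed), the let-7 family (13) or the mir-64 family (10) was barely detected. The mir-51, mir-44, mir-2 and mir-238 families gave 1 each, namely miR-53-3p, miR-247-5p, miR-43-5p (9 reads) and miR-239b-3p (0 reads). The mir-58 family, relatives of the fly bantam miRNA, was the exception among these with 7 of 16 names, beside 43.2% of all 437 names. miR-58c, which the list used left out, had 41 reads. miR-58b (chromosome IV, 6660461 to 6660519, minus strand) had 0 reads on its 3p arm and 14 on its 5p arm. miR-2209b and miR-2209c had 0 reads on their 5p arms, with 4 and 11 on their 3p arms, and miR-2209a-5p had 4. How reads that match several family members were assigned is not given in the sources used here, and its part in the counts of family members was not tested. miR-44-3p and miR-45-3p had the same sum of 1208253 reads. Whether such reads were divided or counted under both names, and so entered the totals more than once, was not tested.

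A hairpin on the opposite strand overlapped 4 of the 84 hairpins whose names were all barely detected (4.76%). This was so for 2 of 59 hairpins with 1 barely detected arm (3.39%) and 2 of 104 with no barely detected name (1.92%). The 2 of 104 were mir-55 and mir-5592, which overlaps its own second copy. Each pair of differently named hairpins enters these counts from both sides, so the shares are not independent. For miR-8186, with 27 reads over both arms, the overlap was with its own second copy. miR-55b (chromosome X, 13144830 to 13144919, plus strand) had 0 reads and lies across mir-55 (13144827 to 13144924, minus strand), which had 222836. miR-356a (chromosome III, 7860147 to 7860256, plus strand, overlapping an exon of tomm-7) had 0 reads and lies across mir-356b (7860167 to 7860234, minus strand), which had 1669. miR-8203 (chromosome X, 7882764 to 7882824, minus strand) had 0 reads and lies across mir-786 (7882751 to 7882840, plus strand), which had 213. mir-786 is known for its part in the defecation rhythm of the intestine, and its 5p arm was among the barely detected names with 1 read. In each pair of differently named hairpins the reads fell on 1 strand only.

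Few quiet hairpins had a neighbour. Another listed hairpin lay within 1000 bp on the same strand for 9 of the 84 hairpins whose names were all barely detected (10.7%). This was so for 29 of 104 hairpins with no barely detected name (27.9%). On chromosome X, miR-4925, miR-4923b, miR-4923a and miR-4921 lie together on the plus strand between 1879562 and 1880038 and had 0, 4, 0 and 1 reads. They lie next to miR-1018 on the same strand, 49 bp from miR-4925, which had 138 reads. miR-8211 (chromosome III, 11936916 to 11936980), with 17 reads over both arms, lies 182 bp from mir-86, with 69041. Of the 84 hairpins 43 lay between protein-coding genes (51.2%), 25 in an intron on the same strand (29.8%) and 12 within a gene on the opposite strand, and 4 overlapped an exon on the same strand. Of the 104 hairpins 58 lay between genes (55.8%) and 28 in an intron on the same strand (26.9%). The quiet hairpins were annotated as shorter, with a median of 73.5 bp against 97 bp. The annotated mature form was 21 to 23 bases long for 66.2% of the names with 0 reads, 83.9% of those with 1 to 17 and 85.1% of the other miRNAs. Among the silent names outside that range were miR-272 (18 bases) and miR-5548-5p (26 bases).

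The few reads fell more often in control worms. The control libraries gave 339 of the 630 reads (53.8%), although they held 45.1% of all counts. The summed level of the 189 names was 46.3, 47.8 and 37.5 CPM for control replicates 1 to 3. Under cadmium it was 30.1, 31.7 and 27.1 CPM in the same order of replicates. Every control library lay above every cadmium library, with means of 43.9 ± 5.55 against 29.7 ± 2.34 (SD, n = 3). With trimmed mean of M-values (TMM) scaling, which adjusts for a few abundant miRNAs, the means moved to 40.9 ± 3.77 and 31.8 ± 3.44, and the groups still did not overlap. No test was made over these names, since they were chosen from the same counts.

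The same shift was present among miRNAs just above the limit. The 40 miRNAs with 18 to 59 reads in all held 94.5 ± 17.5 CPM in control libraries and 66.4 ± 11.3 under cadmium, a ratio of 0.702 against 0.676 for the barely detected names. In the bands from 60 to under 60000 reads the ratio ran from 0.782 to 0.961. It was 1.01 for the 38 miRNAs with 60000 reads or more. Of the 112 detected names, 68 had a lower mean CPM in cadmium and 44 a higher one. The share that was lower, 60.7%, was close to the 61.9% of all 360 detected miRNAs. Whether the barely detected names differ in this from the rest was not tested.

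The number of names detected followed depth as well as group. At full depth the control libraries showed 48, 55 and 72 of the 189, the cadmium libraries 53, 58 and 41, and these ranges overlapped. Control replicate 3 had both the highest count of names and the highest total. Without it the difference in means, 7.67 names fewer under cadmium, was 0.833 fewer. When every library was thinned to 1640693 counts, the expected numbers were 48.0, 44.0 and 43.2 for control against 34.3, 35.5 and 30.7 for cadmium (means 45.1 ± 2.55 and 33.5 ± 2.51). For the 40 miRNAs with 18 to 59 reads the thinned means were 38.0 ± 1.00 and 33.7 ± 0.199. Altogether 94 names were detected in control and 94 in cadmium worms, with 76 in both, 18 in control only and 18 in cadmium only.

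**Figure D4:**
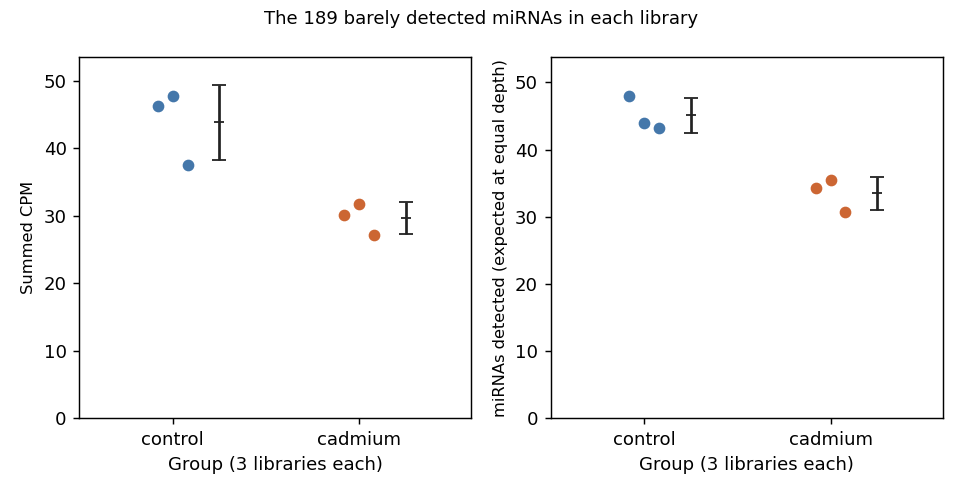
Summed CPM (left) and number detected after thinning to the lowest library total (right) for the 189 barely detected miRNAs, with 1 point per library and the mean ± SD of 3 libraries beside them. Control libraries lie at 37.5 to 47.8 CPM and cadmium libraries at 27.1 to 31.7.

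Single names were tested with edgeR's quasi-likelihood test over all 360 miRNAs with at least 1 read, since the usual filter on low counts kept none of the 189. Of the 112 detected names 1 passed an adjusted p of 0.05 and 5 had an unadjusted p under 0.05, which 23.9% of all 360 had. Over all 360 miRNAs 15.6% passed (8.61% higher and 6.94% lower under cadmium), against 0.893% of the detected names here. Names with a single read had unadjusted edgeR p-values of 0.373 to 0.389, so they could not pass. With so few reads the lower share does not show a weaker response. miR-5546-3p (chromosome I, 2888448 to 2888557, minus strand, in an intron of arx-1) had 2, 9 and 2 reads in control and 1, 0 and 0 in cadmium libraries. The groups did not overlap, with 13 reads against 1 (fitted log2 fold change −3.41, SE 1.21, edgeR adjusted p 0.0418). The call was lost when any library other than control replicate 3 was left out, with edgeR adjusted p-values of 0.5 without control replicate 2 (log2 fold change −2.27) and 0.0508 to 0.13 without each of the other 4. It was also lost with a minimum of 6 reads (0.0862), with the replicate number as a block (0.16, log2 fold change −3.54) and with the DESeq2 Wald test (0.131, log2 fold change −3.82). Its 5p partner had 0 reads.

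Other names had reads in only 1 group or nearly so, and none of them passed the threshold. miR-8200-5p had 2, 1 and 3 reads in control and 0 in each cadmium library (edgeR adjusted p 0.14). Its pooled control level was 2.43-fold the cadmium floor of 3 counts over the group. The interval of its control share was 54.1% to 100%, beside 45.1% of all counts. That interval covers counting error only, and the name was chosen for this split. miR-255-5p had 0 in each control library and 1, 1 and 4 in cadmium libraries (edgeR adjusted p 0.154). Its pooled cadmium level was 1.64-fold the control floor, and the interval of its control share, 0% to 45.9%, includes 45.1%. Its 3p partner, with 19, 46 and 62 against 64, 49 and 47 reads, had a log2 fold change of 0.27 (SE 0.30, edgeR adjusted p 0.555). miR-4926 also had reads in cadmium libraries alone, with 2, 0 and 4 (edgeR adjusted p 0.16). miR-4809-3p had 6, 0 and 3 reads in control and 0, 0 and 1 in cadmium libraries (edgeR adjusted p 0.171). miR-8204-5p, with 0, 6 and 4 against 1, 1 and 0, and miR-58b-5p, with 3, 5 and 3 against 0, 3 and 0, overlapped between groups. So did miR-5549-3p (2, 7 and 1 against 2, 0 and 1) and miR-8193-5p (2, 0 and 8 against 0, 1 and 2). Among names with fewer reads and some in each group, miR-4810a had 3, 1 and 3 against 1, 0 and 0 and miR-244-3p had 2, 3 and 1 against 0, 1 and 0, both named after their values were seen. Groups did not overlap in CPM for 8 of the 112 names (5 lower and 3 higher under cadmium), or 7.14%, against 26.4% of all 360. Separation needs a read in each of the 3 libraries of a group, which names with 1 or 2 reads cannot have. The lower share is thus partly set by the limit on reads and does not measure the response to cadmium.

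**Figure D5:**
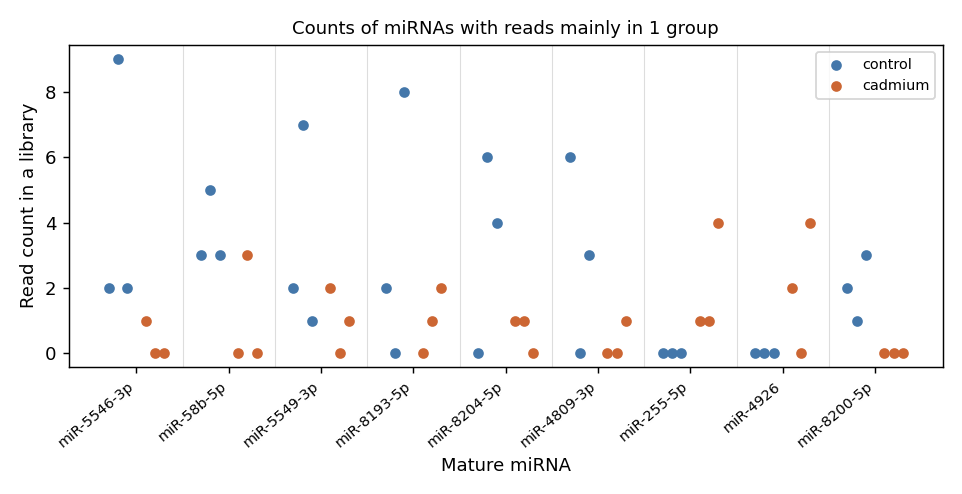
Read counts in each of the 6 libraries (vertical axis, 1 point per library) for the 9 barely detected miRNAs with at least 6 reads all in 1 group, or at least 10 reads with 80% or more of the CPM in 1 group (control blue, cadmium orange). miR-5546-3p reached 9 reads in control replicate 2, and miR-255-5p and miR-4926 had reads only in cadmium libraries.

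The partner arms, whose levels were not used to choose the names, could be tested at better depth. Of the 59 partner arms with 18 or more reads, 47 were kept by the filter on low counts. In edgeR's quasi-likelihood test over the 208 miRNAs kept, 11 of the 47 partner arms changed (5 higher and 6 lower under cadmium), or 23.4%, against 21.6% of all 208 (9.62% higher and 12% lower under cadmium). Across the 47, the log2 fold change had a median of −0.12, beside 0.0039 for all 208. The share of hairpins called beside a silent or nearly silent arm was near that of the whole table.

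Among the 5 partner arms that rose, miR-249-3p had 106, 168 and 213 control reads against 493, 488 and 289 under cadmium. It went from 58.5 ± 5.67 to 138 ± 7.79 TMM-scaled CPM (log2 fold change 1.24, SE 0.22, edgeR adjusted p 0.00272), with no overlap, while miR-249-5p stayed at 0 reads in every library (chromosome X, 3006440 to 3006536, minus strand). miR-239b-5p, from a hairpin linked to stress and lifespan, rose to 35, 19 and 10 reads from 1, 1 and 0 (edgeR adjusted p 0.00104), and miR-247-3p to 533, 601 and 541 from 115, 92 and 241 (edgeR adjusted p 0.00105). Their partners miR-239b-3p and miR-247-5p had 0 reads in all 6 libraries. miR-8188-5p had 9, 18 and 10 against 12, 125 and 82 reads, and its groups overlapped (edgeR adjusted p 0.0362). It missed the threshold when any library other than cadmium replicate 1 was left out, with edgeR adjusted p-values from 0.0548 to 0.154, and with the replicate block (0.116). miR-53-5p rose from 2165 ± 324 to 3763 ± 1233 TMM-scaled CPM with overlapping groups (log2 fold change 0.80, SE 0.25, edgeR adjusted p 0.0437), and missed the threshold with total-count scaling (0.101), upper-quartile scaling (0.0564) and the replicate block (0.0975). It also missed it when any library other than cadmium replicate 1 was left out, with edgeR adjusted p-values from 0.0595 to 0.184.

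Among the 6 that fell, miR-2209a-3p had 28, 26 and 52 control reads against 14, 12 and 12 under cadmium (log2 fold change −1.58, SE 0.33, edgeR adjusted p 0.00601). It belongs to the same family as miR-2209b and miR-2209c, which stayed barely detected. miR-8200-3p had 44, 20 and 117 against 23, 15 and 14 reads, and its groups did not overlap in CPM (log2 fold change −1.83, SE 0.46, edgeR adjusted p 0.0178). Its own 5p arm is the name seen only in control libraries above. The adjusted p of miR-8200-3p was 0.125 without control replicate 3, which holds its highest count, 0.074 without control replicate 1, 0.0725 without cadmium replicate 2 and 0.0539 with the replicate block. miR-1819-3p fell from 40.1 ± 1.73 to 19.5 ± 1.31 TMM-scaled CPM (log2 fold change −1.04, SE 0.24, edgeR adjusted p 0.0124; 0.0535 without control replicate 3 and 0.0715 with the replicate block). miR-85-3p fell by 0.58 on the log2 scale (SE 0.17, edgeR adjusted p 0.0362) and miR-784-5p by 0.88 (SE 0.28, edgeR adjusted p 0.0431). The last missed the threshold when any library was left out, with edgeR adjusted p-values from 0.0725 to 0.169, with upper-quartile scaling (0.111), with the replicate block (0.0982) and with no filter (0.0961). miR-1832a-5p had 11, 23 and 24 reads against 7, 2 and 5 (edgeR adjusted p 0.00704; 0.0713 with the replicate block), and its 3p arm had 4, 2 and 1 against 1, 0 and 2.

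In the pairs given here, the few reads of a barely detected name and the counts of its partner did not always move together. These pairs are examples, and no tally over all pairs is given. miR-1830-5p had 0, 1 and 2 reads in control and 3, 6 and 3 in cadmium libraries, with no overlap. Its 3p partner had 9, 13 and 16 against 31, 29 and 18 (log2 fold change 0.89, SE 0.30, edgeR adjusted p 0.0574), and neither passed the threshold. miR-1820-3p had 1, 0 and 4 against 4, 4 and 3 reads, with no overlap in CPM, while its 5p partner had a log2 fold change of −0.02 (SE 0.29, edgeR adjusted p 0.965). miR-85-5p had 0, 1 and 2 against 4, 2 and 1 reads, with overlapping groups, beside the fall of miR-85-3p. miR-246-5p had 1, 0 and 1 against 3, 4 and 1 reads, also with overlapping groups. The log2 fold change of miR-246-3p was −0.55 (SE 0.18, edgeR adjusted p 0.0521).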

How the data were processed

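Small RNA libraries of whole worms, 3 control and 3 cadmium-exposed, were compared, with groups and replicate numbers taken from the sample titles. Each library has a deposited file of raw counts for 437 mature miRNAs, per the file headers. A second deposited file gives the authors' CPM on the total of the listed miRNAs, which were used for a single alternative limit. The submitters' processing notes name FastQC 0.11.9, cutadapt 3.4, HISAT2 2.2.1, StringTie 2.1.5, Bowtie2 2.4.2, DESeq2, edgeR and the build WBcel235, without roles. The miRNA release and the handling of reads matching several miRNAs are not given in the sources used here. Another 12 per-sample columns, in joint tables, were left aside since their names match no title.

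Counts were analysed in R 4.3.3 with edgeR 4.0.16, using TMM scaling and the quasi-likelihood F test (two-sided, Benjamini-Hochberg adjustment). The test ran over the 360 miRNAs with a read for the barely detected names, and over the 208 kept by filterByExpr for partner arms. DESeq2 1.42.0 was an alternative. The edgeR test over miRNAs with a read was tried on simulated counts, while the filtered test and DESeq2 were not. The standard error is the fitted change divided by the square root of F. Thinned numbers are exact expectations without replacement. Hairpin positions and lengths come from the Ensembl annotation, matched by name for 189 of 189 names. For names with several loci the first was used.

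The limit of 18 reads, the lists and the tests were chosen with earlier results of these data known. Names in the text are those nearest the limit, those with at least 6 reads all in 1 group or at least 10 reads with 80% or more of the CPM in 1 group, those with the smallest p, those with the most abundant or a changed partner, list members and hairpins at 0. Seeds and shared sequences were not analysed here.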

Additional observations from a re-analysis of the deposited data

How the results depend on the processing

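The number of barely detected names ran from 172 (limit of 12 reads) to 205 (limit of 30), and from 184 to 196 with a library left out. Names with an expressed partner ran from 44 to 47 with a library left out, and were 30 when a mean of 50 counts was required, by construction. The difference in summed CPM (cadmium minus control), −14.2, was −9.11 with TMM scaling, −12.5 without miR-5546-3p (chosen after the data were seen), and from −17.4 to −12.3 with a library left out. The difference in names detected ran from −12.8 to −0.833 with a library left out. Calls among barely detected names were 0 with the DESeq2 Wald test, the replicate block and a minimum of 6 reads (1, 1 and 2 with an unadjusted p under 0.05), and from 0 to 1 with a library left out. It was 1 under each other scaling. Calls among partner arms were 4 with the replicate block and ran from 5 to 12 with a library left out, being 5 without control replicate 3, 6 without control replicate 1 or cadmium replicate 2, and 7 without cadmium replicate 3. None of the 5 barely detected names with the smallest p reversed direction, nor did the 10 largest changes among the 11 called partner arms. Of the 180 values compared 38 were weaker, meaning that a call at adjusted p 0.05 was lost. Names without a call could not be weaker by this measure. All 8 weaker values of barely detected names were of miR-5546-3p. Deviations from the group means were uncorrelated or opposed between libraries of the same number (r = −0.0446, −0.294 and −0.312), so the replicate block rests on the number alone. The cause of these differences was not tested. Depth limits every single name here, since 1 to 17 reads over 6 libraries give wide counting intervals.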
